A study of Mus musculus with 6 samples.

Results

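The genes described are 32 blood and immune cell genes, chosen by symbol from a list of leukocyte genes and measured among 21937 genes in 2 mouse kidney cell lines. They comprise 6 transcription factor genes, 8 T cell genes, 4 B cell genes, 8 myeloid genes and 6 genes shared by most leukocytes. A row was found for all 32 genes. Of these, 31 matched by their own symbol and 1, Spi1, by its older symbol Sfpi1 in the RefSeq gene table.

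Blood cells arise from hematopoietic stem cells under the control of lineage transcription factors such as Tal1, Runx1 and Spi1, which open the genes of each blood lineage in turn. Surface receptors and signalling proteins, such as the CD3 chains of T cells, the CD79 chains of B cells and the integrins of myeloid cells, are then made only in the lineage that uses them. Kidney mesenchyme derives from mesoderm but is not a blood lineage, so these genes are foreign to it. Lineage genes that a cell does not use are often covered by trimethylated H3K27, the mark laid down by Polycomb repressive complex 2, whereas H3K4 methylation goes with promoters and enhancers in use.

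The cells were the immortalized lines mK3 and mK4, both labelled as lines of the E11.5 metanephros (the embryonic kidney) from strain CD1. Each line had 1 chromatin immunoprecipitation sequencing (ChIP-seq) library with an antibody labelled H3K4 (Abcam ab8898), 1 with an antibody labelled H3K27 (from Active Motif) and 1 input library of genomic DNA without antibody. No treatment is named, and the labels do not say whether either line is a single clone. The labels give no degree of methylation. The number ab8898 is the one under which the supplier sells an antibody against trimethylated lysine 9 of H3, so the label and the number do not match, and "H3K4" below is the label's name only. Summed exon counts ran from 311409 in the mK3 input to 714011 in the mK4 H3K4 library. The 32 genes held between 433 reads (mK3 input) and 1283 reads (mK3 H3K27), with per-gene medians of 11 to 34 reads. With 1 library per group no difference has a replicate check and no test was made. Intervals are 95% exact counting intervals, which cover counting error only.

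H3K27 lay above input at most of the blood and immune genes in both lines. The 32 genes together took 1283 H3K27 reads in mK3 and 1039 in mK4, which is 2163.3 and 2159.0 RPM (reads scaled by library total), against 1390.5 and 1321.5 RPM of input. The ratios of these shares were 1.56 (1.39 to 1.74) in mK3 and 1.63 (1.47 to 1.82) in mK4, so the set as a whole carried nearly the same H3K27 share in the 2 lines. On the scale of log2(scaled count + 5) the median gene lay 0.69 above input in mK3 and 0.58 in mK4, where the median over all genes was 0.00 in both. H3K27 was above input at any size in both lines at 23 of the 32 genes (71.9%), against 32.8% of all genes. In single lines it was above input at 25 genes in mK3 and 26 in mK4, against 49.7% and 47.1% of all genes. At the same 23 genes the H3K27 read share was the highest of the 3 libraries in both lines, against 26.7% of all genes. That ranking contains the comparison with input and asks for no minimum size. Tyrobp in mK3, for example, ranked so on 4 H3K27 and 4 H3K4 reads. H3K27 was below input in both lines at 4 genes, Spi1, Runx1, Lck and Itgb2, against 33% of all genes.

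Fewer single genes reached a 2-fold excess. A gene was called marked when its scaled count plus 5 was at least 2-fold that of its own input. H3K27 marked 6 of the 32 genes in mK3 (18.8%, against 10.3% of all genes) and 10 in mK4 (31.2%, against 9.06% of all genes). The mK3 genes were Ikzf3, Tal1, Cd3e, Cd4, Cd22 and Lcp1, and the mK4 genes were Ikzf1, Ikzf3, Cd3d, Cd4, Cd79b, Itgam, Itgax, Csf3r, Tyrobp and Lcp2. Ikzf3 and Cd4 were marked in both lines, which is 6.25% of the 32 genes against 2.85% of all genes. They are 33.3% of the genes marked in mK3 and 20% of those marked in mK4, where the shares over all genes were 27.8% and 31.4%. In at least 1 line 14 genes were marked, against 16.5% of all genes. Several genes lay close to the limit. In mK3, Lcp1 at 1.01 was just inside and Csf3r just outside, equal to the limit after rounding, and in mK4 Csf3r at 1.02 was just inside and Itgal at 0.93 just outside. Called instead by a counting interval that lay wholly above input, 9 genes passed in mK3 (28.1%, against 11.3% of all genes) and 13 in mK4 (40.6%, against 12.1%). By that rule 6 genes passed in both lines, Ikzf1, Ikzf3, Cd4, Itgax, Csf3r and Lcp1, or 18.8% against 4.96% of all genes, and in at least 1 line 16 (50%) did, against 18.4%.

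**Figure D1:**
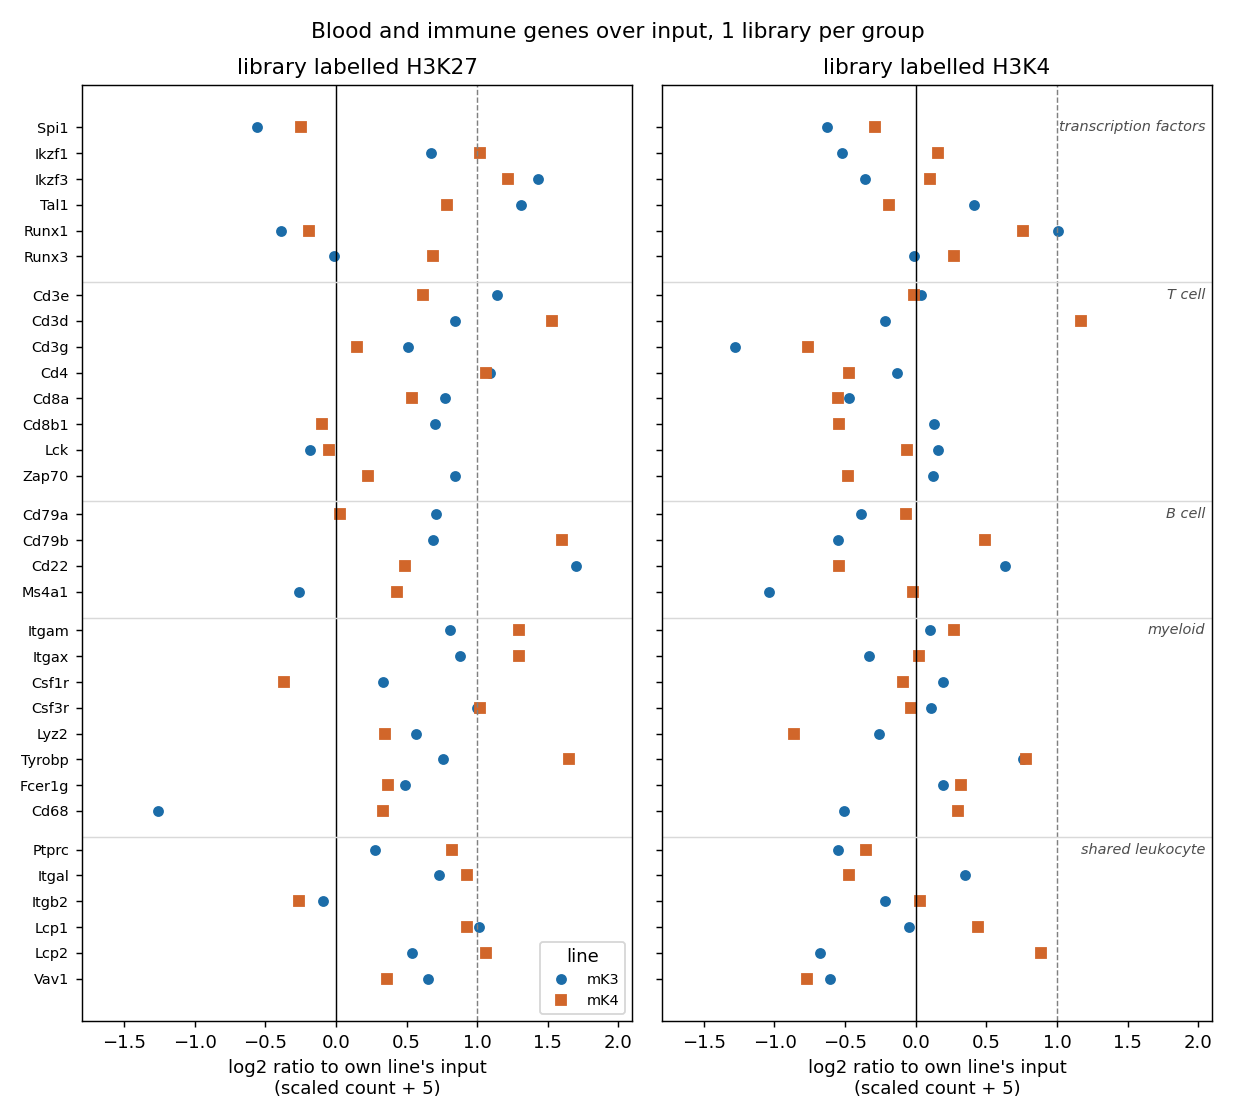
Each row is 1 of the 32 genes, grouped by subgroup, and the x axis is the log2 ratio of H3K27 (left) or H3K4 (right) to the input of the same line, with 5 added to scaled counts; circles are mK3, squares mK4, and the dashed line is 2-fold. H3K27 points lie mostly right of 0, at 25 genes in mK3 and 26 in mK4, whereas H3K4 points lie on both sides and Runx1 is furthest right in mK3 at 1.01.

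The 6 transcription factor genes differed in H3K27 over input, without a clear division between them. Ikzf3, which encodes the lymphoid zinc finger factor Aiolos, had 107 H3K27 reads in mK3 and 64 in mK4 beside 19 and 20 input reads. Its H3K27 was 2.96-fold over input in mK3 (1.8 to 5.1) and 2.57-fold in mK4 (1.54 to 4.49), while its 27 and 40 H3K4 reads gave ratios of 0.743 and 1.08. Its relative Ikzf1, which encodes Ikaros, a factor needed for lymphocyte development, had 82 and 58 H3K27 reads, 26 and 21 input reads and 33 and 44 H3K4 reads. The H3K27 ratios of Ikzf1 were 1.66 (1.05 to 2.68) and 2.22 (1.33 to 3.85). Tal1, a basic helix-loop-helix factor at the origin of blood, had 70 H3K27 reads in mK3 and 27 in mK4, with 13 and 11 input reads and 35 and 17 H3K4 reads. It stood 2.83-fold over input in mK3 (1.55 to 5.57), and in mK4 the interval of its 1.97-fold excess reached below 1 (0.947 to 4.41).

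In its H3K4, Runx1 was the exception among the factors. It encodes a DNA-binding factor required for the first blood stem cells, and it is also used in several epithelial and mesenchymal tissues. Its H3K4 reads numbered 222 and 236, its H3K27 reads 80 in each line, and its input reads 56 and 74, the highest input of the 32 genes in both lines. Its H3K4 was 2.07-fold over input in mK3 (1.54 to 2.83) and 1.73-fold in mK4 (1.32 to 2.27), whereas its H3K27 ratios of 0.75 (0.526 to 1.08) and 0.869 (0.625 to 1.21) were below 1 with intervals that crossed it. No other gene of the 32 had an H3K4 interval above input in both lines. Runx3, its relative in T cells, had 36 and 46 H3K4, 36 and 43 H3K27 and 19 and 20 input reads, and none of its 4 intervals over input excluded 1. The H3K27 ratios of Runx3 were 0.995 (0.556 to 1.84) and 1.73 (0.995 to 3.1), and in mK4 its interval overlapped that of Tal1. Spi1, which encodes PU.1, the main factor of myeloid cells, had 14 and 23 H3K4, 15 and 16 H3K27 and 13 and 16 input reads. Its H3K27 ratios were 0.606 (0.269 to 1.38) and 0.804 (0.376 to 1.72), so neither mark stood over input there at this depth. Summed over the 6 factors, H3K27 was 1.4-fold over input in mK3 (1.16 to 1.71) and 1.43-fold in mK4 (1.17 to 1.74). The same sums for H3K4 were 1.31 (1.08 to 1.6) and 1.36 (1.13 to 1.64). Runx1 alone decided this H3K4 excess: without it the H3K4 ratios were 0.843 and 1.05 and the H3K27 ratios 1.81 and 1.9.

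The T cell genes carried H3K27 over input as a group, most of them with few reads each. Summed over the 8 genes, 250 H3K27 reads in mK3 and 166 in mK4 stood against 73 and 86 input reads, or 1.8-fold (1.38 to 2.37) and 1.55-fold (1.19 to 2.04). The H3K4 sums of 118 and 126 reads gave 0.846 (0.626 to 1.15) and 0.793 (0.598 to 1.06). Cd4, the co-receptor of helper T cells, had 47 and 44 H3K27 reads beside 10 and 15 input reads and 17 and 18 H3K4 reads. With 2.47-fold (1.23 to 5.48) and 2.36-fold (1.29 to 4.56) over input, it was the T cell gene with an excess beyond its interval in both lines. Cd8a and Cd8b1, the co-receptor chains of cytotoxic T cells, had 43 and 31, and 19 and 9 H3K27 reads, with 12 and 16, and 5 and 8 input reads. The excess at Cd8a was 1.88-fold in mK3 (0.975 to 3.92) and 1.56-fold in mK4 (0.826 to 3.05), within counting error in each line.

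The CD3 genes, which encode the signalling chains of the T cell receptor and lie side by side on chromosome 9, each had more H3K27 than input. Cd3e had 28 H3K27 reads in mK3 and 14 in mK4 with 5 and 6 input reads, Cd3d 25 and 16 with 6 and 2, and Cd3g 35 and 13 with 12 and 9. Their H3K4 reads were 10 and 11, 9 and 17, and 6 and 7. Together they stood 2.01-fold over input in mK3 (1.26 to 3.33) and 2.03-fold in mK4 (1.14 to 3.8). Cd3e passed the interval in mK3 (2.94-fold, 1.12 to 9.75) and Cd3d in mK4 (6.43-fold, 1.51 to 57.6), the latter on 2 input reads. The same 2 input reads set the H3K4 call of Cd3d in mK4, where 17 reads gave 4.6-fold (1.09 to 41.1). Lck and Zap70 encode kinases that act in turn below the receptor. Zap70 had 25 and 14 H3K27 reads with 6 and 9 input reads, a ratio of 2.19 in mK3 (0.876 to 6.52), and Lck had 28 and 25 with 17 and 21 input reads, ratios of 0.865 and 0.957. The intervals of the 2 genes overlapped.

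Among the 4 B cell genes, H3K27 summed to 1.85-fold over input in mK3 (1.21 to 2.89) and 1.62-fold in mK4 (1.13 to 2.36). H3K4 summed to 0.685 (0.412 to 1.15) and 0.83 (0.567 to 1.22). Cd22, an inhibitory lectin of B cells, had 44 H3K27 reads in mK3 and 49 in mK4, but 5 and 27 input reads, and 18 and 32 H3K4 reads. It was marked in mK3 at 4.62-fold (1.84 to 14.9) and not in mK4 at 1.46-fold (0.894 to 2.43), while its H3K27 share itself was 1.37-fold in mK4 over mK3 (0.895 to 2.11), so the call moved with the input. Cd79a and Cd79b encode the signalling chains of the B cell receptor. Cd79b had 22 and 17 H3K27, 6 and 8 H3K4 and 6 and 2 input reads and passed in mK4 (6.83-fold, 1.62 to 60.9), again on 2 input reads. Cd79a had 13 and 9 with 3 and 7 input reads, and Ms4a1, which encodes CD20, had 23 and 20 with 15 and 11 (H3K4 11 and 20). Neither stood over input beyond its interval.

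The myeloid genes had the largest H3K27 sum over input of the 5 subgroups in mK4. Their 209 and 219 H3K27 reads against 68 and 89 input reads gave 1.61-fold in mK3 (1.22 to 2.15) and 1.98-fold in mK4 (1.54 to 2.56), intervals that overlap those of the other subgroups. Their H3K4 sums were at input, at 1.02 and 1.04. Csf3r, the receptor for the granulocyte growth factor G-CSF, had 40 and 30 H3K27 reads with 9 and 10 input reads, and 19 and 18 H3K4 reads. Its excess was almost the same in both lines, 2.33-fold (1.11 to 5.47) and 2.41-fold (1.15 to 5.53). Itgam and Itgax, which encode the CD11b and CD11c integrin chains of macrophages and dendritic cells, had 41 and 68, and 40 and 59 H3K27 reads. Their input reads were 11 and 20, and 10 and 17, and their H3K4 reads 23 and 46, and 14 and 32. Itgam stood 1.96-fold over input in mK3 (0.988 to 4.22) and 2.73-fold in mK4 (1.64 to 4.75), and Itgax 2.1-fold (1.03 to 4.71) and 2.79-fold (1.6 to 5.1).

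The other 5 myeloid genes showed no H3K27 excess beyond counting error in mK3. Csf1r, the macrophage growth factor receptor, had 59 and 26 H3K27, 53 and 48 H3K4 and 24 and 28 input reads, with H3K27 ratios of 1.29 (0.791 to 2.17) and 0.746 (0.42 to 1.32). Lyz2, the lysozyme gene of myeloid cells, had 17 and 14 with 5 and 8 input reads. Cd68, a lysosomal protein of macrophages, was the only one of the 32 genes with H3K27 below input beyond its interval in a line: 3 reads in mK3 against 8 in input gave 0.197 (0.0336 to 0.82), and 9 against 5 in mK4 gave 1.45 (0.435 to 5.49). Over all genes 11% in mK3 and 11.4% in mK4 were below input in this way. Its H3K4 reads were 9 and 13. Tyrobp and Fcer1g, short adaptor genes of 571 and 663 exon bases, were at the limit of the depth. Tyrobp had 4 and 10 H3K27 reads, 4 and 5 H3K4 reads and 0 input reads in both lines. With a floor of 3 counts in place of the 0 input reads, its H3K27 ratio was 2.68 in mK4, and no fold is given for mK3. That value leaves out the counting error of its H3K27 reads. The lower limit of its counting interval over input was 1.8 in mK4 and 0.347 in mK3. Fcer1g had 5 and 3 H3K27 reads, 3 and 4 H3K4 reads and 1 input read in each line.

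The shared leukocyte genes had H3K27 sums of 1.49-fold over input in mK3 (1.2 to 1.86) and 1.71-fold in mK4 (1.38 to 2.13). Their H3K4 sums were 0.76 (0.597 to 0.97) and 0.925 (0.74 to 1.16), the only subgroup with an H3K4 interval below input, in mK3. Ptprc, which encodes the pan-leukocyte phosphatase CD45, had 98 and 94 H3K27 and 53 and 58 H3K4 reads with 42 and 41 input reads, at 1.23 (0.845 to 1.8) and 1.84 (1.26 to 2.73). Lcp1, an actin-bundling protein of leukocytes, had 79 and 35 H3K27 and 35 and 35 H3K4 reads with 19 and 13 in input, at 2.18 (1.31 to 3.82) and 2.16 (1.12 to 4.46). Lcp2, the adaptor SLP-76, had 33 and 31 H3K27 and 11 and 40 H3K4 reads with 11 and 10 in input, at 1.58 (0.777 to 3.45) and 2.49 (1.19 to 5.7). The ratios of Lcp1 in the 2 lines were thus nearly equal even though its reads were not. Itgal, the CD11a integrin chain, had 29 and 54 H3K27 and 21 and 26 H3K4 reads with 8 and 21 in input, at 1.9 (0.849 to 4.82) and 2.07 (1.23 to 3.6). Vav1, an exchange factor of antigen receptor signalling, had 63 and 38 H3K27 and 23 and 22 H3K4 reads with 20 and 23 in input, at 1.65 (0.987 to 2.89) and 1.33 (0.771 to 2.33). Itgb2 encodes CD18, the beta chain that pairs with the products of Itgal, Itgam and Itgax. It had 30 and 19 with 17 and 19 input reads, at 0.927 and 0.804. The 3 alpha chains were thus above input in both lines and the shared beta chain was not. Their intervals overlapped that of Itgb2 (0.495 to 1.79) in mK3. In mK4 that of Itgb2 (0.403 to 1.6) lay below that of Itgam, met that of Itgax at its end and overlapped that of Itgal.

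**Figure D2:**
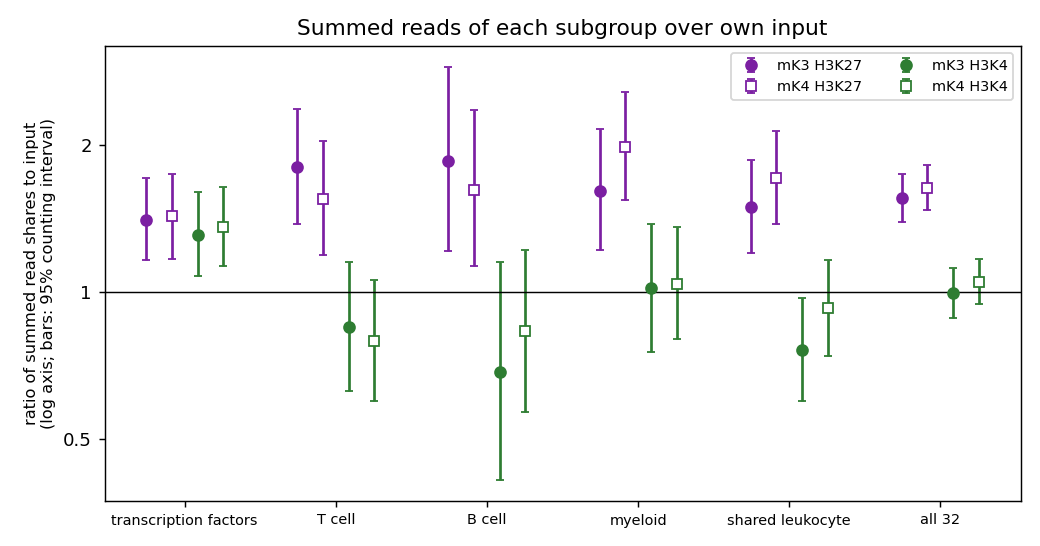
Summed reads of each subgroup, and of all 32 genes, as a ratio of read shares to the input of the same line on a log axis, with 95% counting intervals as bars; filled circles are mK3 and open squares mK4. H3K27 intervals lie above 1 for all 5 subgroups in both lines, whereas H3K4 intervals lie above 1 for the transcription factors only.

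H3K4 showed no such excess over the set. On the 32 genes fell 825 H3K4 reads (mK3) and 992 (mK4), which gave ratios to input of 0.997 (0.886 to 1.12) and 1.05 (0.944 to 1.17). Without Runx1 they were 0.837 and 0.937. The median gene lay at -0.18 in mK3 and -0.02 in mK4 against 0.00 over all genes. H3K4 marked Runx1 in mK3 and Cd3d in mK4, 1 of 32 (3.12%) in each line against 4.94% and 3.69% of all genes. Below input beyond its interval were Cd3g in mK3 (6 reads against 12, 0.262, 0.0805 to 0.753), Ms4a1 in mK3 (11 against 15, 0.384, 0.159 to 0.894) and Vav1 in mK4 (22 against 23, 0.518, 0.275 to 0.972). These 2 genes in mK3 and 1 in mK4 stand against 7.07% and 7% of all genes, so they are near or under the background. H3K4 lay above input at any size at 13 and 14 genes, against 47.2% and 47.1% of all genes. No gene was marked by H3K4 in both lines (0.811% of all genes), and 2 were in at least 1 line (7.82%). By the counting interval H3K4 was above input at 1 gene in mK3 (6.21% of all genes), Runx1, and at 3 in mK4 (6.61%), Runx1, Cd3d and Lcp2. The counts cover exons, so reads in the bases before a gene's start are left out. Housekeeping genes, 20 in all, had summed H3K4 ratios over input of 1.16 (0.998 to 1.35) and 1.16 (1.02 to 1.33), so the library labelled H3K4 was little enriched at them too.

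H3K27 and H3K4 were also compared with each other, which needs no input library. This comparison was added after the values over input were seen. H3K27 took a larger read share than H3K4 beyond the counting interval at 18 of the 32 genes in mK3 (against 18.8% of all genes) and at 15 in mK4 (against 18%). It did so in both lines at 13 genes (40.6%, against 10.2% of all genes), which were Ikzf1, Ikzf3, Tal1, Cd3g, Cd4, Cd8a, Cd79b, Cd22, Itgam, Itgax, Csf3r, Ptprc and Vav1. In at least 1 line 20 genes did (62.5%, against 26.6%). Runx1 alone was lower beyond its interval in both lines (1 gene, against 9.24% of all genes), at 0.362 (0.277 to 0.469) in mK3 and 0.503 (0.385 to 0.651) in mK4. The largest ratio in mK3 was at Cd3g, at 5.86 (2.44 to 17), and in mK4 at Lyz2, at 4.15 (1.41 to 14.7). Summed over subgroups, the ratio of H3K27 to H3K4 in mK3 was 2.69 (1.84 to 4.02) for the B cell genes, 2.13 (1.7 to 2.67) for the T cell genes, 1.96 for the shared and 1.59 for the myeloid genes. In mK4 these 4 groups lay between 1.85 and 1.96, with overlapping intervals. It was lowest for the transcription factors, at 1.07 (0.923 to 1.23) and 1.05 (0.902 to 1.23), a sum that Runx1 dominates with 748 reads over the 6 libraries.

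**Figure D3:**
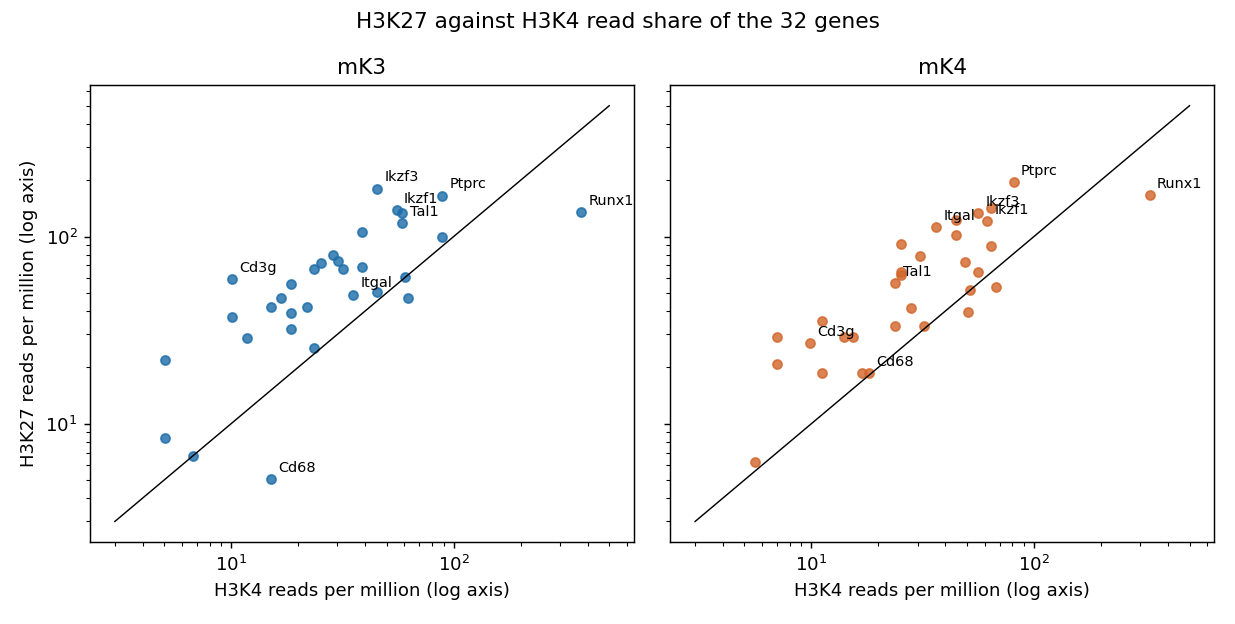
H3K27 RPM (y) against H3K4 RPM (x) for each of the 32 genes in mK3 (left) and mK4 (right), both on log axes, with the line of equal shares. Most points lie above the line in both panels, and Runx1, with 222 and 236 H3K4 reads against 80 H3K27 reads in each line, lies below it in both.

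Promoter sequence was compared because Polycomb marks are known to favour CpG-rich promoters. RefSeq promoter windows (GRCm38.p6, 250 bases before to 50 after a start) were found for 22 of the 32 genes, 31 windows in all. The median window of these genes held 6 CpG dinucleotides, against 7 over all 32851 windows, and 4 of the 31 held 20 or more, against 26.5% of all. The H3K27 and H3K4 values are exon counts of the whole gene, so most of each window lies outside the bases counted. By these exon counts, H3K27 was found over input at genes of both kinds. The 4 windows below, chosen after the values were seen, show a CpG-rich gene with H3K27 (Ikzf1), a CpG-rich gene with H3K4 (Runx1), a gene with an H3K27 interval above input in both lines and a CpG count near the median (Csf3r) and a gene marked by H3K27 in mK4 with no CpG (Lcp2). CpG dinucleotides are in capitals.
Ikzf1 (chr11:11685675-11685974, plus strand): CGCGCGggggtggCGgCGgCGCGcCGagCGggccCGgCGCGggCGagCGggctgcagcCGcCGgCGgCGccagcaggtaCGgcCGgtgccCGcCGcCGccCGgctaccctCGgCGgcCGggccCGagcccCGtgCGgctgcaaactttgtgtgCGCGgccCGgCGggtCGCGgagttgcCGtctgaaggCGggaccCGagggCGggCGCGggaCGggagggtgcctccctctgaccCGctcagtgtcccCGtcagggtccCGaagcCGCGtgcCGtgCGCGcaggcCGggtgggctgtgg
Runx1 (chr16:92697280-92697579, minus strand): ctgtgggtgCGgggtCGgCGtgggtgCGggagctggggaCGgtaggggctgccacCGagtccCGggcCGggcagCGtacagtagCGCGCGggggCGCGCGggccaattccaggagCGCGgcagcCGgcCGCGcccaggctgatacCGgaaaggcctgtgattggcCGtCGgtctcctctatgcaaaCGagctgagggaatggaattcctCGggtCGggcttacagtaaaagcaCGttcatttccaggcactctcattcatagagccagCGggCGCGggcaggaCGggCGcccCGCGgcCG
Csf3r (chr4:126024409-126024708, plus strand): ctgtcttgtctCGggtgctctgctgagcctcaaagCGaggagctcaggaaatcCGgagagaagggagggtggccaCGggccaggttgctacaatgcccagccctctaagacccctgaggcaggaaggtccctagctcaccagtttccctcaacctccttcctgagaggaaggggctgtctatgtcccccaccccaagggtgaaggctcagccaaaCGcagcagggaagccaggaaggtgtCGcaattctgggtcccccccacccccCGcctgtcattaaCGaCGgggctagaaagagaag
Lcp2 (chr11:34046678-34046977, plus strand): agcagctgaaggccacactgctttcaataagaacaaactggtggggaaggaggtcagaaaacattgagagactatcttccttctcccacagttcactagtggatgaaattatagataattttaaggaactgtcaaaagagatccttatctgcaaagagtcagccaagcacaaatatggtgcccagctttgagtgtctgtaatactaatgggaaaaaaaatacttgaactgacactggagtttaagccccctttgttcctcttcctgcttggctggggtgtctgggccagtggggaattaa
These windows hold 52, 35, 9 and 0 CpG. Ikzf1 and Runx1 each have another annotated start whose window holds 2. Across the 22 genes, the CpG count of the richest window had a correlation with H3K27 over input, counted over exons, of -0.15 in mK3 and -0.03 in mK4. This is a description over 22 genes that share the same 4 libraries, and values at this level are no finding in sparse counts. The motif GAGGAA, known as the PU box and bound by the Spi1 product, was found on either strand (TTCCTC on the other) in 15 of the 31 windows (48.4%), against 28.3% of all windows. A match describes the sequence and does not show binding.

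Between the lines, the largest differences of single genes were read beside those of their chromosome. On the scale with 5 added to scaled counts, none of the 14 genes marked by H3K27 in at least 1 line changed 2-fold between the lines, where 5.4% of all such genes were higher and 5.67% lower in mK4. Neither did the 2 marked by H3K4, against 5.42% higher and 5.01% lower of all such genes. By the counting interval, H3K27 was higher in mK4 at 3 of the 32 genes (7.56% of all genes) and lower at 4 (8.25%), shares near the background. With 5 added, and marked or not, 1 gene was 2-fold higher (Itgal; 3.73% of all genes) and 0 were 2-fold lower (3.54%). The ratios of plain read shares that follow are larger, and by these Itgam, Tyrobp (3.08, 0.889 to 13.5) and Cd68 (3.7, 0.923 to 21.2) also passed 2-fold upward and Tal1 and Cd3g downward. The share of all genes beyond 2-fold by plain read shares was not computed, and the intervals of Tyrobp and Cd68 included 1. The 3 higher genes were Itgam (2.04-fold, 1.37 to 3.09), Itgax (1.82-fold, 1.2 to 2.79) and Itgal (2.29-fold, 1.44 to 3.74), all on chromosome 7. Over all 2035 genes of that chromosome, mK4 had 1.54-fold the input of mK3 (1.51 to 1.58), 1.44-fold the H3K27 and 1.55-fold the H3K4. Summed over these 3 genes, the input was 1.61-fold (1.01 to 2.61) and H3K27 2.03-fold (1.59 to 2.59) in mK4 over mK3. The part of the chromosome in the H3K27 difference was not tested.

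The 4 genes with less H3K27 in mK4 were on 4 other chromosomes. Lcp1, with 79 reads in mK3 and 35 in mK4, had a ratio of 0.546 (0.356 to 0.823), and lies on chromosome 14, whose input ratio was 0.644 (0.628 to 0.66). The summed input of its 10 neighbours on each side was lower in mK4 by a log2 ratio of -1.06. At Tal1 the ratio was 0.475 (0.293 to 0.751) for H3K27 and 0.405 (0.213 to 0.742) for H3K4, so both marks were lower in mK4. Its input ratio of 0.681 had a wide interval (0.276 to 1.65), and the log2 ratio of its neighbours' input was 0.03. Cd3g had 0.458 (0.222 to 0.887) beside a neighbour input of -0.40, and Csf1r 0.543 (0.329 to 0.875) beside -0.09. Summed, the 3 CD3 genes had 88 H3K27 reads in mK3 and 43 in mK4, a ratio of 0.602 (0.408 to 0.877), and 23 and 17 input reads, a ratio of 0.595 (0.299 to 1.16).

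For H3K4, Lcp2 was the gene higher in mK4 beyond its interval, 3.03-fold (1.53 to 6.55), on 11 and 40 reads beside 11 and 10 in input. Tal1 was the gene lower. That is 1 of 32 in each direction, against 9.29% and 10.7% of all genes, and both also passed 2-fold with 5 added (4.51% and 2.99% of all genes). In the inputs, Cd22 alone differed beyond its interval (5 and 27 reads, 4.35-fold, 1.65 to 14.5), against 6.97% of all genes higher and 7.59% lower. With 5 added it was also the one 2-fold difference of input (7.26% of all genes higher, 6.2% lower). The 6 blood and immune genes on chromosome 7, grouped after their values were seen, had a summed input ratio of 2 (1.35 to 3.02) and a summed H3K27 ratio of 1.79 (1.47 to 2.19), whereas the 26 others had 0.852 (0.741 to 0.98) and 0.876 (0.798 to 0.96). Over own input, H3K27 stood above 1 in both sets and both lines, at 2.43 and 2.17 on chromosome 7 and at 1.47 and 1.52 elsewhere.

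**Figure D4:**
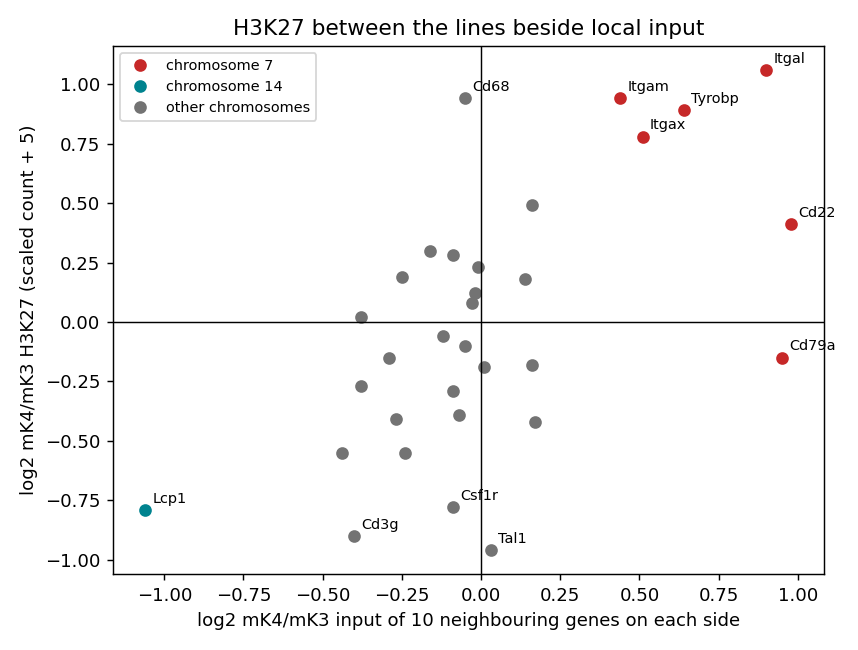
Log2 ratio of H3K27 in mK4 over mK3 (y) against the log2 ratio of the summed input of 10 neighbouring genes on each side (x) for the 32 genes, coloured by chromosome. The 6 genes on chromosome 7 lie at the right and Lcp1 on chromosome 14 at the far left at -1.06, and Tal1 is lowest at -0.96 with a neighbour ratio of 0.03.

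Further blood genes outside the 32 were read in the same way. In 154 genes of 6 further lists, H3K27 marked 34 in mK3 (22.1%, against 10.3% of all genes) and 29 in mK4 (18.8%, against 9.06%). Their medians over input were 0.50 in both lines, close to those of the 32 genes, and H3K27 summed to 1.54-fold (1.46 to 1.62) and 1.52-fold (1.44 to 1.6). H3K4 marked 4 and 3 of them (2.6% and 1.95%, against 4.94% and 3.69% of all genes) and summed to 0.937 (0.884 to 0.994) and 0.908 (0.862 to 0.957). Of 34 genes listed as further blood transcription factors 11 and 9 were marked by H3K27 (32.4% and 26.5%, against the same 10.3% and 9.06%). In both lines 5 were (14.7%, against 2.85%), Erg, Gfi1, Tlx1, Cebpa and Gfi1b. Erg is also in the endothelial list below, so the list is not limited to genes of blood. Gfi1, a repressor in blood stem cells and granulocytes, had 114 and 54 H3K27 reads with 21 and 15 input reads (2.85-fold, 1.78 to 4.78, and 2.89-fold, 1.61 to 5.52). Cebpa, the factor of granulocyte commitment, had 40 and 32 with 8 and 8. Of 34 further myeloid genes 7 and 8 were marked (20.6% and 23.5%), and 4 in both lines (11.8%, against 2.85%), namely Csf2rb, the common beta chain of cytokine receptors, C1qc, Tlr7 and Cd33. Csf2rb had 92 and 72 H3K27 reads with 14 and 19 input reads (3.45-fold, 1.96 to 6.56, and 3.05-fold, 1.82 to 5.35).

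The T and natural killer cell list had 9 of 28 genes marked in mK3 (32.1%, against 10.3% of all genes) and 2 in mK4 (7.14%, against 9.06%). The latter, Ubash3a and Il2ra, were marked in both lines. Its inputs were higher in mK4, with a median of 0.53 on the log2 scale and a sum of 1.57-fold (1.32 to 1.86). Its H3K27 differed less between the lines, with a median of 0.00 and a sum of 1.21-fold (1.09 to 1.35) in mK4. The part of the input in the lower count was not tested. Of 18 further B cell genes 3 and 2 were marked (16.7% and 11.1%), of 24 shared leukocyte genes 1 and 6 (4.17% and 25%), and of 16 erythroid genes 3 and 2 (18.8% and 12.5%). Against the same 10.3% and 9.06% of all genes, the shared leukocyte count in mK3 was below the background and several others were near it. Slc4a1, the anion exchanger of red cells, was the erythroid gene marked in both lines, with 114 and 63 H3K27 reads beside 18 and 19 in input (3.33-fold, 2.01 to 5.81, and 2.66-fold, 1.57 to 4.71).

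Other gene lists were set beside the blood genes. These lists were chosen with earlier results of these data known, and the part of that choice in their order was not tested. With 1 library per group the differences between lists were not tested. The endothelial list of 20 genes, the lineage closest to blood, had H3K27 medians over input of 0.72 in mK3 and 0.57 in mK4, beside 0.69 and 0.58 for the 32 blood genes. In it 5 and 4 genes were marked (25% and 20%, against 10.3% and 9.06% of all genes). The 24 factor genes listed for other tissues (such as nerve, gut, heart and muscle), called non-renal factors here, had higher medians, 1.34 and 0.95. Of these genes, 16 and 12 were marked (66.7% and 50%). The list holds Hnf4a, which the kidney tubule also uses, so its name is only a label. Kidney progenitor genes (18) had 0.29 and -0.10, with 2 and 2 marked (11.1% in each line). Housekeeping genes (20) had -0.52 and -0.66, with 1 and 0 marked (5% and 0%). The summed H3K27 ratios over input were 2.52 (2.2 to 2.88) and 2.38 (2.09 to 2.71) for the non-renal factors, whose intervals lay above those of the 32 blood genes in both lines. Those of the housekeeping genes, 0.611 (0.514 to 0.727) and 0.582 (0.492 to 0.689), lay below them.

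**Figure D5:**
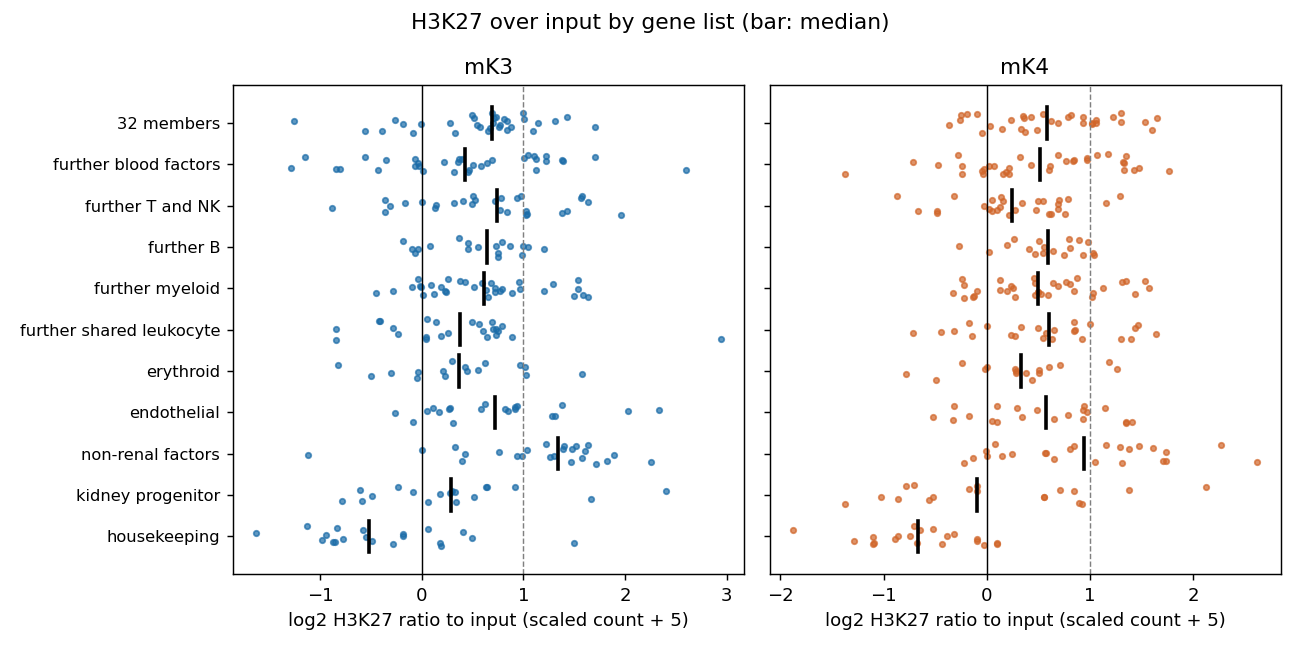
Each point is 1 gene, placed by its log2 H3K27 ratio to input in mK3 (left) or mK4 (right), with 5 added to scaled counts; rows are gene lists, black bars are list medians, points are spread vertically at random and the dashed line is 2-fold. The 32 blood genes have medians of 0.69 and 0.58, beside 1.34 and 0.95 for the non-renal factors and -0.52 and -0.66 for housekeeping genes.

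Fewer genes passed when exon length replaced the input as the background. H3K27 then marked 3 of the 32 genes in mK3 (9.38%, against 2.38% of all genes) and 1 in mK4 (3.12%, against 3.51%), and H3K4 marked 1 in each line, against 5.74% and 6.24%. The median of the 32 genes was 0.29 in mK3 and 0.44 in mK4, where all genes had -0.08 and -0.17, and 26 and 25 of the 32 lay above 0. The H3K4 medians were -0.44 and -0.32 against -0.18 and -0.21, and the input medians -0.11 and -0.24 against -0.13 and -0.16. In the authors' deposited RPKM, which divides reads by exon length and by library total, the median of the 32 genes was 20.6 and 22.7 for H3K27 against 15 and 13.7 over all genes. For H3K4 it was 10.9 and 12.1 against 13.5 and 13.1, and for input 14.6 and 13 against 14.3 and 13.9. On this length-adjusted scale, too, the median of the blood genes lay above that of all genes for H3K27 in both lines. In mK3 it lay below that of all genes for H3K4 and near it for input. In mK4 it lay slightly below for H3K4 and for input, by a similar amount.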

How the data were processed

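The data are 6 ChIP-seq libraries, 1 for each line (mK3, mK4) and library type (H3K4, H3K27, input), grouped by title. The deposited files list whole-read counts for 22088 gene rows beside exon lengths, per the file headers. The authors' RPKM was recomputed from these counts and matched to a relative difference of 2.7e-09. Per the submitters' processing notes the reads were placed on mm9. How reads were aligned, and whether duplicates were removed, is not stated in what was used here.

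Of several rows of a symbol (137 symbols) one was kept, that with most scaled ChIP reads, leaving 21937 genes. Counts were scaled to a total of 513622 and log2 ratios formed after adding 5, which understates differences of genes with few reads. Ratios with intervals are ratios of read shares (exact Clopper-Pearson, 95%). Genes and lists were chosen with earlier results of these data known. Genes of the other lists are named where the same mark passed in both lines, at most 6 per list. The promoter windows printed were chosen otherwise than planned, since the genes marked in both lines had no window. The calculation was tested on simulated data. Python 3.11.15, numpy 2.4.6, pandas 2.3.3 and scipy 1.17.1 were used, and gene order came from RefSeq GRCm38.p6.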

Additional observations from a re-analysis of the deposited data

Results flagged for a closer look

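At 5 of the blood and immune genes a mark lay above input in one line and below it in the other, at least 2-fold apart on the log2(scaled count + 5) scale. The share of all genes that met this rule was not computed, so the count of 5 has no background beside it. The differences below are mK4 minus mK3. Cd68 differed by 1.59 for H3K27, with 3 reads in mK3 and 9 in mK4 beside 8 and 5 input reads. For H3K4, Lcp2 differed by 1.56, with 11 and 40 reads beside 11 and 10 in input, and Cd3d by 1.39, with 9 and 17 beside 6 and 2. Cd79b differed by 1.04, with 6 and 8 H3K4 reads beside 6 and 2, and Cd22 by -1.18, with 18 and 32 beside 5 and 27. With 1 library per group these differences were not tested. At Cd22 the input ratio between the lines had an interval beyond 1 (1.65 to 14.5), and at Lcp2 the H3K4 ratio did (1.53 to 6.55). At Cd3d and at Cd79b the input ratio was 0.268, with an interval that included 1 (0.0265 to 1.5). The intervals of their H3K4 ratios between the lines included 1 too.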

How the results depend on the processing

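Each of the counts, medians and sums was recomputed under other settings, 199 values in all, of which 152 stayed within 1.5 times a count or within the interval of a value and 47 moved. Where a value moved, the cause was not tested. No paired analysis was possible because each group has 1 library and the labels carry no replicate numbers.

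H3K27 marked 6 genes (mK3) and 10 (mK4). This was 13 in mK3 with a pseudocount of 1, and 3 and 6 with a pseudocount of 10. It was 3 and 1 with exon length as background, 19 and 16 at 1.5-fold and 1 and 2 at 3-fold. The share of all genes marked at these other pseudocounts and folds was not computed for H3K27 or H3K4. The counts at those settings thus have no background beside them and do not show more or less marking than in all genes. The H3K27 median in mK3 was 0.88 with a pseudocount of 1 and 0.29 with exon length as background. The H3K4 count of 1 in each line was 2 and 3 with a pseudocount of 1, 0 and 0 with a pseudocount of 10 or at 3-fold, 3 and 4 at 1.5-fold, and 3 in mK4 by the counting interval. The direction of the H3K27 medians over input was the same under every setting run.

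Between the lines, the main counts of 0 became as follows. For H3K27, 3 genes were higher and 1 lower in mK4 with a pseudocount of 1, 1 higher with scaling by the median of ratios, 1 lower with own input subtracted, 4 higher and 2 lower at 1.5-fold, and 3 higher and 4 lower by the counting interval. For H3K4, 1 was higher with a pseudocount of 1, with own input subtracted, at 1.5-fold and by the counting interval, and 1 lower by the counting interval. For input, 1 gene was higher and 0 lower. These were 2 and 2 with a pseudocount of 1, 2 and 5 at 1.5-fold, and 0 higher with neighbour input subtracted or without chromosomes 3, 7, 14 and X. Apart from the counting interval, the share of all genes under these other settings was not computed, so these counts have no background either.

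Leaving out the member with the most reads moved 8 of 42 sums. Without Runx1, the H3K4 ratios to input (mK3, then mK4) were 0.837 and 0.937 for all 32 genes, and 0.843 and 1.05 for the transcription factors, whose H3K27 was 1.81 and 1.9. Without Cd22 the B cell input ratio between the lines was 0.671 in place of 1.31, and without Csf1r the myeloid H3K27 ratio was 1.59 in place of 1.29. Leaving out Spi1, a setting chosen after the data were seen, or the 5 genes with a mean scaled count under 10, moved none. Depth limits what single genes can show: the median gene of the 32 had 11 input reads in mK3 and 14 in mK4.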
